A study of Homo sapiens with 6 samples.

Results

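The genes described here were 36 autosomal genes of glucose breakdown and of the cellular answer to low oxygen, chosen by symbol among the 23355 genes with a symbol in the count table. All 36 had an entry, 35 passed the filter on low counts, and EGLN3 did not. RNA was sequenced from HFL-1, an established line of fibroblasts from human fetal lung, 48 h after the cells had received either siNTC, a control siRNA with no target, or siTAZ #1 or siTAZ #2, which target TAZ. No other treatment is named for these libraries, so the TAZ siRNA was the stated difference between the groups. There were 2 libraries per group and 6 in all, and the methods describe the TAZ siRNA transfections as done in duplicate. P-values measure the spread between these duplicates, which need not cover separately grown cultures.

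Glycolysis splits glucose into pyruvate in the cytosol and yields ATP without oxygen. Hypoxia-inducible factors (HIF) are transcription factors made of an oxygen-sensitive alpha subunit, HIF-1α (HIF1A) or HIF-2α (EPAS1), and a constant beta subunit. With oxygen present, prolyl hydroxylases mark the alpha subunit for destruction, so HIF activity is set mainly at the level of the protein, and in low oxygen HIF switches on glucose transporters, most glycolytic enzymes, angiogenic factors and its own brakes. In lung fibroblasts, a high glycolytic rate is known to go with the myofibroblast state.

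Library totals over these 23355 genes ran from 15648055 to 32078188 counts, and the 36 genes took 0.969% to 1.13% of them. Replicate libraries differed beyond sampling noise over the 35 tested members, where the mean chi-square per gene was 6.99 in siNTC, 48.6 in siTAZ #1 and 33.9 in siTAZ #2. All 12 fibroblast markers checked were at 1 CPM or more in every library, while none of the 7 epithelial and none of the 4 endothelial markers was, with summed levels of at most 3.18 and 3.50 CPM. Of the 4 immune markers, CD68, a lysosomal protein that fibroblasts can also express, was at 37.8 to 75.4 CPM, and none of the others reached 1 CPM in every library. In replicate 2 of siTAZ #1, the genes from RANGAP1 on chromosome 22 through X and Y took 0.246% of the counts, against 3.58% to 3.74% in the other 5 libraries. None of the 36 genes lies there, but these 576 genes raised the common dispersion of the fit from 0.0164 without them to 0.0807. The targeted gene, WWTR1, which encodes TAZ, was at 132 and 131 CPM with siNTC, at 26.4 and 28.4 CPM with siTAZ #1 and at 46.1 and 43.1 CPM with siTAZ #2, so both siRNAs lowered it, siTAZ #1 by more.

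Each level is given in CPM, the count divided by the library total after TMM scaling and brought to a common size, with siNTC replicates 1 and 2 first, then siTAZ #1 and then siTAZ #2. Log2 fold changes come from edgeR's quasi-likelihood test with Benjamini-Hochberg adjustment (FDR) over the 14053 genes tested, and "rose" and "fell" are used for an FDR under 0.05. Both comparisons with siNTC share the siNTC libraries, whereas the direct comparison of siTAZ #1 with siTAZ #2 does not use them for its difference. An exact permutation test of 2 against 2 libraries could not go below p = 0.333, so none was used. In bulk RNA, fewer cells of a type and less RNA per cell cannot be told apart.

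STC1 rose more than any other member with either siRNA, while the rest of the group moved in both directions. With siTAZ #1, 4 of the 35 tested members rose (STC1, VEGFA, EPAS1 and SLC16A3) and 6 fell (SLC2A1, HK2, PFKP, PGAM1, ENO2 and ADM), so that 28.6% were called, where 20.6% of all genes tested were (10.8% higher and 9.78% lower). With siTAZ #2, 10 rose (STC1, SLC16A3, PFKL, ALDOC, PFKFB3, PFKFB4, ENO2, KDM3A, VEGFA and BNIP3L) and 10 fell (SLC2A1, SLC2A3, HK2, PFKP, TPI1, ENO1, EPAS1, CA12, ADM and STC2), so that 57.1% were called, against 28.5% of all genes (14.1% higher and 14.4% lower). The direct comparison called 8 members higher and 8 lower with siTAZ #1 than with siTAZ #2, or 45.7%, against 28.6% of all genes (15.2% higher and 13.4% lower). The median log2 fold change of the tested members was -0.05 with siTAZ #1 and -0.06 with siTAZ #2, beside 0.02 and 0.01 over all genes. The median size of the change, without its sign, was 0.24 with siTAZ #1 and 0.57 with siTAZ #2, beside 0.37 and 0.41 over all genes. These counts leaned on the fit. With the genes from RANGAP1 onward left out of the fit, 6 members were called higher and 7 lower with siTAZ #1, and 10 higher and 12 lower with siTAZ #2, while 30.6% and 38.7% of all genes were called. Leaving out 1 library leaves a lone library in its group, and the number of members called against siNTC then changed. Without either siNTC library, fewer members were called with each siRNA, and so were fewer of all genes. Without replicate 1 of siTAZ #1, more members and more of all genes were called with siTAZ #1.

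**Figure D1:**
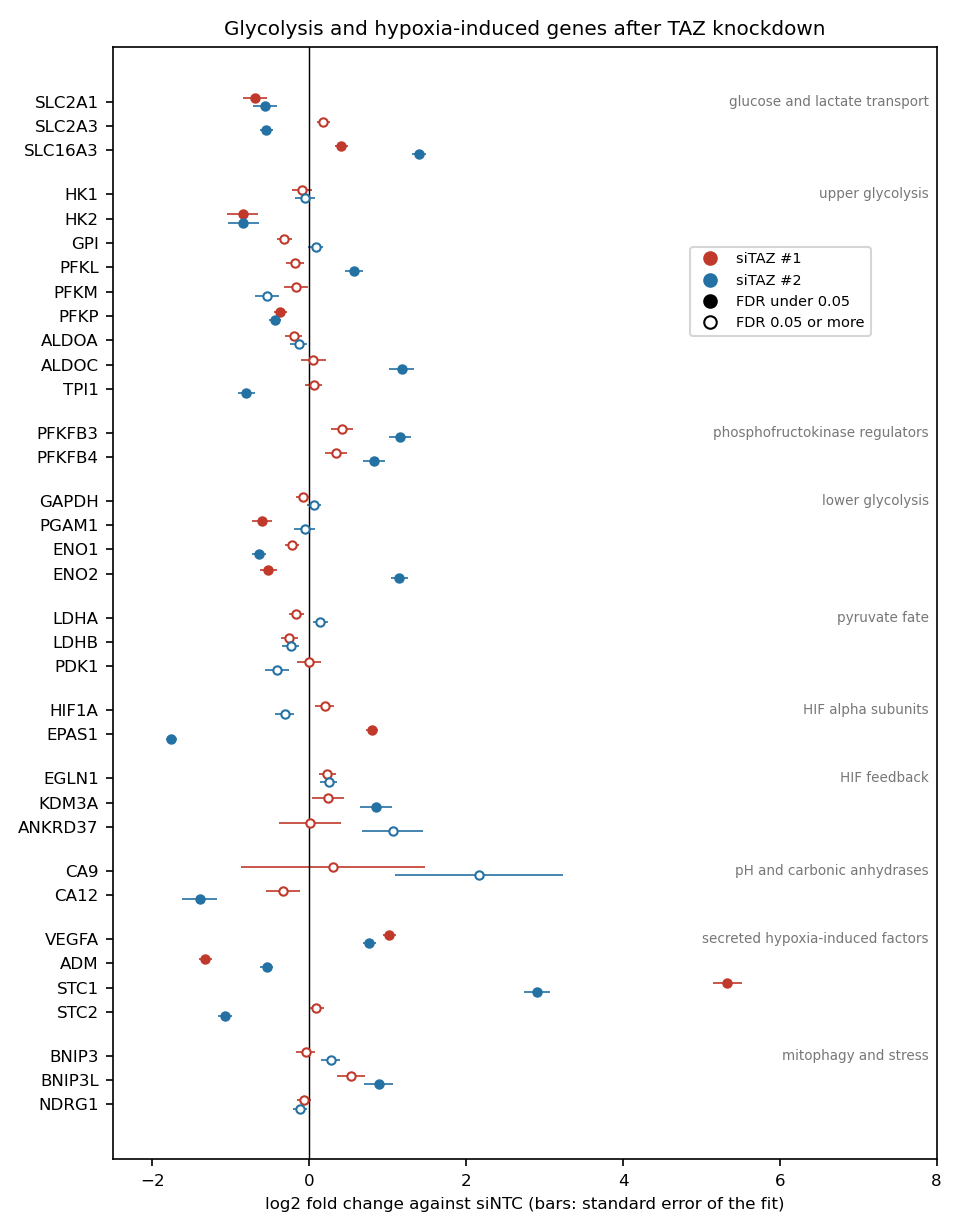
Log2 fold change against siNTC (horizontal axis) of the 35 tested members, grouped by role, with siTAZ #1 in red and siTAZ #2 in blue, bars for the standard error, and filled points for an FDR under 0.05. STC1 stands at 5.33 and 2.90, every other member lies between -1.76 and 2.17, and EPAS1 and ENO2 are called on opposite sides of 0.

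HIF binds DNA at short sites whose core is ACGTG or GCGTG, and the promoters of 4 members that moved are shown to place these letters before the values. RefSeq windows of 300 bases on GRCh38.p14, from 250 bases before to 50 after the annotated start, were matched for 31 of the 36 members, not for SLC2A3, VEGFA, STC1, BNIP3L and NDRG1. ALDOC (chr17:28576846-28577145, minus strand) and ENO2 (chr12:6914330-6914629, plus strand) rose with siTAZ #2, ADM (chr11:10304823-10305122, plus strand) fell with both siRNAs, and EPAS1 (chr2:46297157-46297456, plus strand) rose with siTAZ #1 and fell with siTAZ #2. Capitals mark ACGTG or GCGTG on either strand, read as CACGT or CACGC where the match is on the opposite strand.
ALDOC: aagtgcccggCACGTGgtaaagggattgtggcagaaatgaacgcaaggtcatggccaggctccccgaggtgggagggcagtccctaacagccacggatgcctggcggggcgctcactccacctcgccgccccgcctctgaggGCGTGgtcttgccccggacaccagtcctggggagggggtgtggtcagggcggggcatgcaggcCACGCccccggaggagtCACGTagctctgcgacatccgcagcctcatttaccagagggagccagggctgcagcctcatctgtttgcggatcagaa
ENO2: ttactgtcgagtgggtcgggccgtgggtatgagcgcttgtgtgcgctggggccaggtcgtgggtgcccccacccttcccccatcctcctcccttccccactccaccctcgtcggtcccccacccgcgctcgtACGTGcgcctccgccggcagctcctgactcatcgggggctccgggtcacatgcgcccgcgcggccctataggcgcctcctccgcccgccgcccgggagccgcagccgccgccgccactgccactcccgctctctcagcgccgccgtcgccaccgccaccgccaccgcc
ADM: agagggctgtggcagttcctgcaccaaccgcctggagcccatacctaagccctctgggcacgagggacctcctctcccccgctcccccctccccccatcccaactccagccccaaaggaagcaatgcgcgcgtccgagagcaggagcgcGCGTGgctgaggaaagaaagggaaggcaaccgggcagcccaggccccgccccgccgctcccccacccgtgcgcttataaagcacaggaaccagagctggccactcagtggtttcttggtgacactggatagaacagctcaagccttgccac
EPAS1: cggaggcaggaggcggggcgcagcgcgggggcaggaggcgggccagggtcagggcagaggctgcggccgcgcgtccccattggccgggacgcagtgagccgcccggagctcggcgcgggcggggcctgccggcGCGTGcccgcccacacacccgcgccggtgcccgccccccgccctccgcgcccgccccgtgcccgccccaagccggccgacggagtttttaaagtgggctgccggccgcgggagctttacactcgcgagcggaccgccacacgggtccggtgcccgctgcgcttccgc
ALDOC held 5 matches, 2 of which overlap in CACGTG, while each of the other windows held 1. All windows shown thus hold a match, whereas the first windows of SLC16A3, PFKP, TPI1 and PGAM1, members that were also called against siNTC, held none. SLC16A3 has 5 windows, PFKP 4 and TPI1 2, and their other windows are not described here. A core of either kind was in 23 of the 31 windows (74.2%), against 48.4% of the 35114 promoter windows of the same length, with ACGTG in 35.5% against 21.4% and GCGTG in 51.6% against 36.5%. These shares are not counted alike. Only the first window of each member was used, although HK1 and PFKM have 7 each, while every window of every gene was counted in the 35114. The windows were also not matched for GC content, which ran from 36.3% in PDK1 to 80.7% in BNIP3. A match is a description of the letters and not a measured binding site, and these genes were chosen as known hypoxia-induced and glycolytic genes.

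STC1 encodes stanniocalcin-1, a secreted glycoprotein, and lies on chromosome 8 of GRCh37 from 23699442 to 23712319. It was at 42.1 and 35.1 CPM with siNTC, at 1504 and 1608 CPM with siTAZ #1, and at 252 and 326 CPM with siTAZ #2. The groups did not overlap, and siTAZ #1 stood highest. The level was 40.3-fold higher with siTAZ #1 than with siNTC (log2 fold change 5.33, standard error 0.18, FDR 0.000428), which ranked 10 from the top of the 14053 genes tested. It was 7.49-fold higher with siTAZ #2 (log2 fold change 2.90, standard error 0.16, FDR 0.00063), at rank 67. The siRNAs differed in a direct test, with a log2 difference of 2.43 (standard error 0.16, FDR 0.000759). STC1 made up 0.334% to 0.409% of the members' counts with siNTC, 13.4% to 14.4% with siTAZ #1 and 2.58% to 3.38% with siTAZ #2. STC1 was called in each of the 3 comparisons under all 17 alternatives tried.

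The other secreted factors did not move with STC1 as a set. VEGFA (chromosome 6, from 43737921 to 43754224), the main angiogenic growth factor under HIF, was at 86.3 and 84.4 CPM with siNTC, 179.7 and 167.3 CPM with siTAZ #1, and 138.9 and 151.8 CPM with siTAZ #2. It rose 2.03-fold with siTAZ #1 (log2 fold change 1.02, standard error 0.09, FDR 0.00172) and 1.70-fold with siTAZ #2 (0.77, standard error 0.09, FDR 0.00262). Every siTAZ library lay above both siNTC libraries, and the direct difference between the siRNAs missed the threshold (0.26, standard error 0.09, FDR 0.0743). ADM (chromosome 11, from 10326620 to 10328944), which encodes the vasodilator peptide adrenomedullin and is a usual hypoxia marker, went the other way, at 156 and 171 CPM with siNTC, 67.0 and 63.5 CPM with siTAZ #1, and 112 and 113 CPM with siTAZ #2. ADM fell with siTAZ #1 (log2 fold change -1.32, standard error 0.08, FDR 0.000896) and, to a smaller extent, with siTAZ #2 (-0.54, standard error 0.08, FDR 0.00696). Without replicate 2 of siNTC, the call of ADM with siTAZ #2 was lost (-0.49, FDR 0.063), and the direct difference of -0.78 (FDR 0.0023) was lost in the exact test (FDR 0.0593). STC2 (chromosome 5, from 172741726 to 172755450), the paralog of STC1, is known to be induced by hypoxia and by endoplasmic reticulum stress. It was at 451 and 441 CPM with siNTC, 459 and 492 CPM with siTAZ #1, and 226 and 198 CPM with siTAZ #2. STC2 fell with siTAZ #2 (log2 fold change -1.07, standard error 0.10, FDR 0.00135), while the change with siTAZ #1 was 0.09 (standard error 0.09, FDR 0.54). In CPM per kb of transcript, STC2 made up 90.7% and 92% of the STC1 and STC2 pair with siNTC, 21.7% and 21.8% with siTAZ #1, and 44.9% and 35.5% with siTAZ #2, so STC1 was the lower member of the pair in both siNTC libraries and the higher in all 4 siTAZ libraries.

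**Figure D2:**
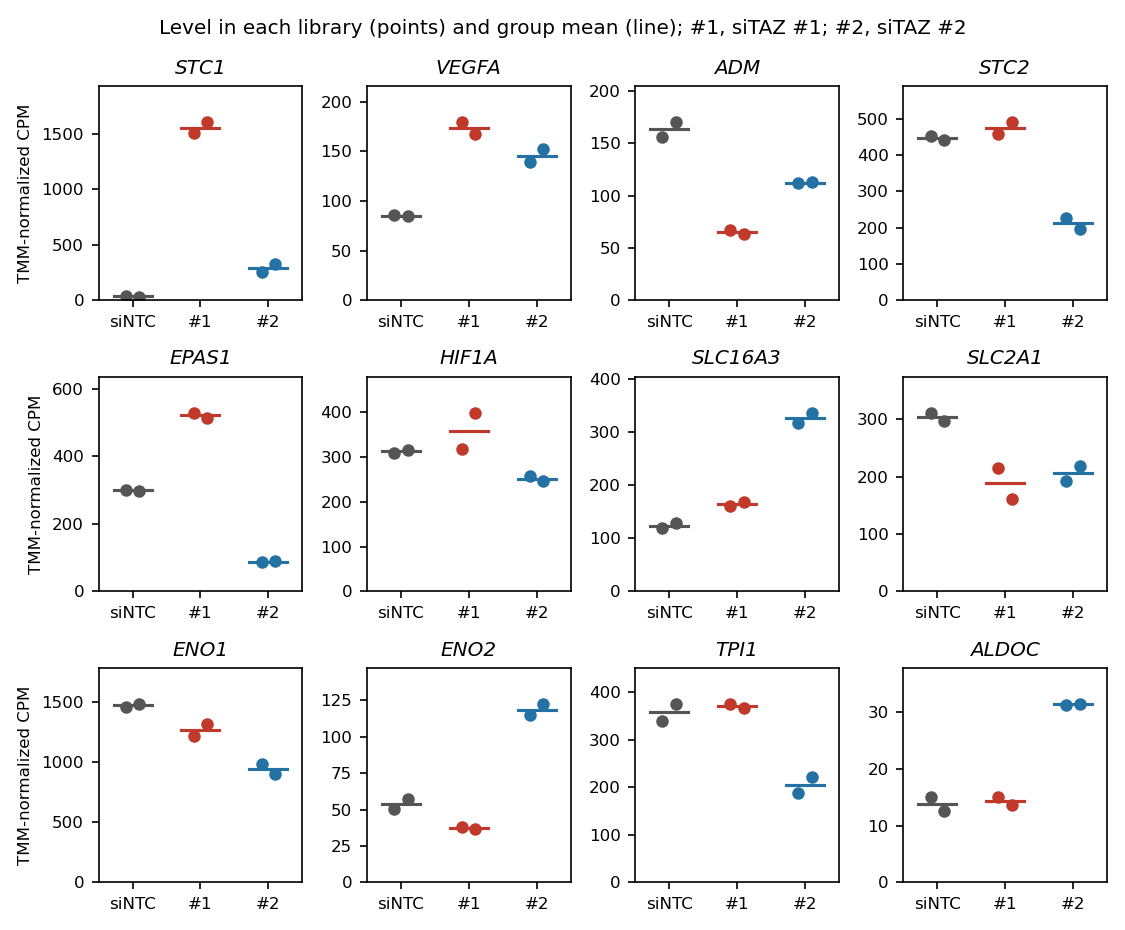
TMM-normalized CPM (vertical axes, each from 0) of 12 members in the 6 libraries, with points for libraries and lines for group means. STC1 is highest with siTAZ #1 at 1504 and 1608 CPM, ADM is below both siNTC libraries in every siTAZ library, and EPAS1 and ENO2 lie on opposite sides of siNTC with the different siRNAs.

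The genes of the HIF alpha subunits differed between the siRNAs. EPAS1 (chromosome 2, from 46520806 to 46613836) was at 301 and 297 CPM with siNTC, at 529 and 512 CPM with siTAZ #1, and at 87.8 and 88.9 CPM with siTAZ #2. The groups stood apart in all libraries, above siNTC with siTAZ #1 and below it with siTAZ #2. EPAS1 rose 1.74-fold with siTAZ #1 (log2 fold change 0.80, standard error 0.07, FDR 0.00189) and fell by 1.76 on the log2 scale with siTAZ #2 (standard error 0.07, FDR 0.000367). The direct difference was 2.56 (standard error 0.07, FDR 0.000173). The rise with siTAZ #1 was not called by edgeR's exact test on the 4 libraries (0.79, FDR 0.0641). HIF1A (chromosome 14, from 62162231 to 62214977) was at 310 and 315 CPM with siNTC, 317 and 398 CPM with siTAZ #1, and 258 and 245 CPM with siTAZ #2. It passed the threshold against siNTC with neither siRNA (0.20, standard error 0.12, FDR 0.296 with siTAZ #1, and -0.31, standard error 0.12, FDR 0.104 with siTAZ #2). The change with siTAZ #2 was called in 7 of the 17 alternatives, among them DESeq2 (FDR 0.0295), the exact test (FDR 0.00316) and the fit with the genes from RANGAP1 onward left out (FDR 0.0393). The direct difference of 0.51 (standard error 0.12, FDR 0.0259) was lost on leaving out any siNTC or siTAZ #2 library (FDR 0.0655 to 0.129). Per kb, EPAS1 made up 42.7% and 41.9% of the pair of alpha subunits with siNTC, 56.1% and 49.6% with siTAZ #1, and 20.7% and 21.7% with siTAZ #2. HIF protein was not measured in these libraries.

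Of the genes that HIF induces as brakes or as chromatin partners, most did not pass the threshold. EGLN1, the main prolyl hydroxylase that marks HIF alpha, had log2 fold changes of 0.23 and 0.25 with siTAZ #1 and siTAZ #2 (FDR 0.18 and 0.139). EGLN3, a hydroxylase that is usually among the most strongly hypoxia-induced genes, had 3 and 2 counts with siNTC, 2 and 3 with siTAZ #1, and 1 and 0 with siTAZ #2, too few to test. KDM3A, a histone H3K9 demethylase, was at 28.8 and 39.8 CPM with siNTC, 37.5 and 43.6 CPM with siTAZ #1, and 55.2 and 68.1 CPM with siTAZ #2. KDM3A rose with siTAZ #2 (0.85, standard error 0.20, FDR 0.0291), and this call was lost on leaving out any siNTC or siTAZ #2 library (FDR 0.0537 to 0.147). ANKRD37, a small ankyrin-repeat protein gene, had few counts, with group levels of 1.39, 1.41 and 2.92 CPM and exact 95% Poisson intervals of 1.01 to 1.87, 1.10 to 1.79 and 2.41 to 3.52 CPM. Its change with siTAZ #2 was 1.06 (standard error 0.39, FDR 0.0924).

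The carbonic anhydrases of the cell surface, which buffer the acid that glycolysis makes, also gave no joint direction. CA9, one of the most widely used hypoxia markers, had 0 and 8 counts with siNTC, 5 and 10 with siTAZ #1, and 31 and 14 with siTAZ #2. Its pooled level was 0.253 CPM (exact 95% Poisson interval 0.109 to 0.499) with siNTC, 0.312 CPM (0.175 to 0.514) with siTAZ #1 and 1.19 CPM (0.865 to 1.59) with siTAZ #2, intervals that cover counting error only. CA9 did not pass the test with siTAZ #1 (FDR 0.875) or with siTAZ #2 (2.17, standard error 1.07, FDR 0.185), although the exact test on 4 libraries called it with siTAZ #2 (2.16, FDR 0.0127). With counts this low, the fitted change with siTAZ #2 was 1.16 without replicate 1 of siNTC and 7.56 without replicate 2, which left a siNTC library with no count. CA12 was at 28.1 and 32.8 CPM with siNTC, 26.2 and 22.3 CPM with siTAZ #1, and 9.49 and 13.7 CPM with siTAZ #2. CA12 fell with siTAZ #2 (-1.40, standard error 0.22, FDR 0.00754), and it missed the threshold without replicate 2 of siNTC (-1.30, FDR 0.0605).

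BNIP3 and BNIP3L, the related receptors that target mitochondria for autophagy, and NDRG1, a stress-responsive gene, close the list of hypoxia-induced members. BNIP3L (chromosome 8, from 26240570 to 26363152) was at 74.0 and 72.4 CPM with siNTC, 88.7 and 122.6 CPM with siTAZ #1, and 150.1 and 120.1 CPM with siTAZ #2. It rose with siTAZ #2 (0.88, standard error 0.18, FDR 0.0175). This call was lost without either siNTC library (FDR 0.107 and 0.115) and without replicate 1 of siTAZ #2 (FDR 0.0934), and with the genes from RANGAP1 onward left out of the fit the change with siTAZ #1 was also called (0.51, FDR 0.016). BNIP3 had changes of -0.05 and 0.27 (FDR 0.812 and 0.143) and NDRG1 of -0.07 and -0.12 (FDR 0.617 and 0.366).

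Whether the rise of STC1 was part of a hypoxia response was not tested, and its values are set beside those of these genes. Leaving STC1 aside, 12 members are HIF feedback genes, carbonic anhydrases, secreted factors or mitophagy and stress genes, and 11 were tested. With siTAZ #1, where STC1 rose most, 1 of the 11 rose (VEGFA) and 1 fell (ADM), which is 18.2% called beside 20.6% of all genes, with 0.09 as the median log2 fold change. With siTAZ #2, 3 rose (KDM3A, VEGFA and BNIP3L) and 3 fell (CA12, ADM and STC2), which is 54.5% called beside 28.5% of all genes, with a median of 0.27. Their summed level was 1074 and 1095 CPM with siNTC, 1113 and 1160 CPM with siTAZ #1, and 952 and 930.3 CPM with siTAZ #2. STC2 made up a large part of this sum, and with STC2 left out as well the sum was 623 and 654.3 CPM with siNTC, 654.2 and 667.8 CPM with siTAZ #1, and 725.8 and 732.8 CPM with siTAZ #2, so that the libraries of siTAZ #2 went from the lowest to the highest. A list of 54 other hypoxia-induced genes in the table, of which 50 were tested, gave the same kind of split, with 7 higher and 6 lower with siTAZ #1 (26%, median -0.04) and 12 higher and 15 lower with siTAZ #2 (54%, median -0.22). The gene with the next largest rise among the hypoxia-induced members with siTAZ #1 was VEGFA, at 2.03-fold, against 40.3-fold for STC1. Whether called or not, 7 of the 11 tested members other than STC1 had a positive log2 fold change and 4 a negative one with each siRNA. Those called went both ways with each siRNA. The alpha subunit gene EPAS1 moved in opposite directions with siRNAs that both raised STC1, but its RNA need not follow HIF activity, which is set mainly at the level of the protein. Oxygen and HIF activity were not measured in these libraries, and what raised STC1 was not tested.

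**Figure D3:**
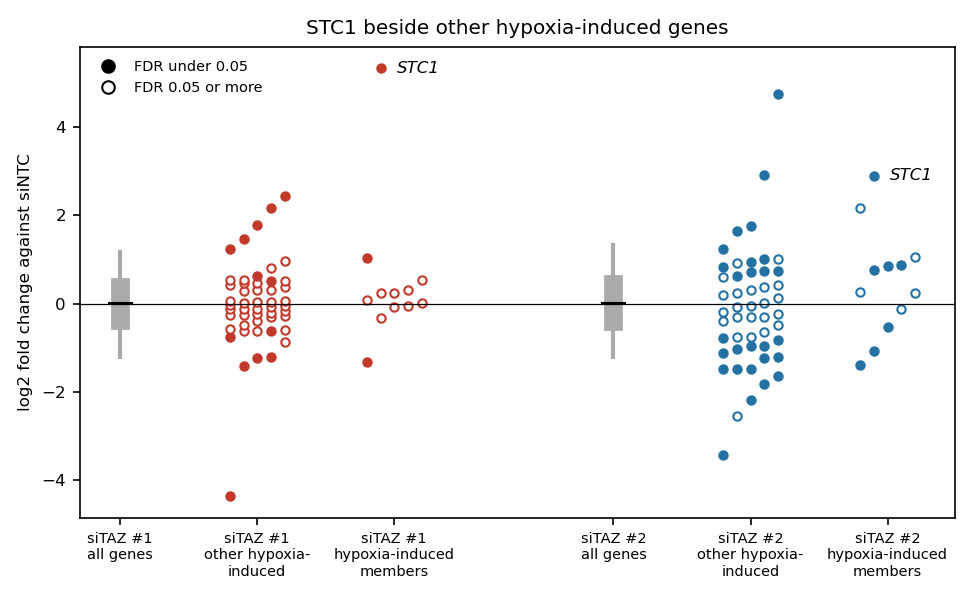
Log2 fold change against siNTC (vertical axis) for all genes tested (grey, thin bar for the range from 5% to 95%, thick bar for 25% to 75%, black tick for the median), for 50 other hypoxia-induced genes and for the 12 tested hypoxia-induced members including STC1, with siTAZ #1 in red and siTAZ #2 in blue and filled points for an FDR under 0.05. STC1 lies at 5.33 and 2.90, apart from the other hypoxia-induced members, whose called values lie on both sides of 0.

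Some of the other hypoxia-induced genes were called on the same side in each comparison with siNTC, and these are given with their own values. Of the 50 tested, 4 were higher with both siRNAs (8%, beside 5.49% of all genes) and 6 lower (12%, beside 3.74%). PLOD2, a lysyl hydroxylase that modifies collagen, was at 52.4 and 41.0 CPM with siNTC, 88.7 and 131.6 CPM with siTAZ #1, and 159.3 and 133.4 CPM with siTAZ #2, which are log2 fold changes of 1.24 (FDR 0.0155) and 1.65 (FDR 0.00485). Its relative PLOD1 had changes of 0.51 (FDR 0.00961) and 0.62 (FDR 0.00373). ANGPTL4, a secreted inhibitor of lipoprotein lipase, had changes of 1.78 (FDR 0.0261) and 2.92 (FDR 0.00448), and CCNG2, a cyclin that restrains the cell cycle, of 2.18 (FDR 0.00134) and 1.00 (FDR 0.00823). On the lower side, DDIT4, an inhibitor of mTORC1 and a common hypoxia marker, was at 96.2 and 106.3 CPM with siNTC, 46.7 and 40.4 CPM with siTAZ #1, and 35.2 and 36.7 CPM with siTAZ #2, with changes of -1.22 (FDR 0.00276) and -1.49 (FDR 0.0011). IGFBP3, a secreted binding protein of insulin-like growth factors, had changes of -4.37 (FDR 0.000428) and -3.43 (FDR 0.000367). PPP1R3C, which directs a phosphatase to glycogen, had changes of -1.42 (FDR 0.00283) and -2.18 (FDR 0.000723), and HMOX1, heme oxygenase 1, of -0.75 (FDR 0.0116) and -1.02 (FDR 0.00326). WSB1 (-0.62 and -0.78, FDR 0.024 and 0.00851) and ZNF395 (-1.24 and -1.22, FDR 0.0242 and 0.0195) were the others. DDIT4, IGFBP3 and PPP1R3C are also in the study's own list of genes lowered by both TAZ siRNAs, which was drawn from these same libraries. Among 16 genes that regulate HIF, of which 15 were tested, 1 rose and 2 fell with each siRNA, which is 20% and not above the 20.6% and 28.5% of all genes. P4HTM, a membrane-bound prolyl hydroxylase, rose from 18.3 and 17.2 CPM with siNTC to 28.5 and 29.6 CPM with siTAZ #1 (0.71, FDR 0.0114) and to 49.2 and 46.2 CPM with siTAZ #2 (1.43, FDR 0.00113).

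Of the 3 transporter genes, 1 rose and 1 fell with siTAZ #1, and 1 rose and 2 fell with siTAZ #2. These are 66.7% and 100% of only 3 genes, beside 20.6% and 28.5% of all genes. SLC2A1 (chromosome 1, from 43391024 to 43424564), which encodes the basal glucose transporter GLUT1, was at 312 and 297 CPM with siNTC, 216 and 162 CPM with siTAZ #1, and 193 and 219 CPM with siTAZ #2. It fell with siTAZ #1 (-0.69, standard error 0.15, FDR 0.0278) and likewise with siTAZ #2 (-0.56, standard error 0.15, FDR 0.0397), and no siTAZ library reached the siNTC levels. Both calls were lost on leaving out any siNTC or siTAZ #2 library (FDR 0.0561 to 0.181). SLC2A3, the high-affinity transporter GLUT3, was at 135 and 149 CPM with siNTC, 159 and 163 CPM with siTAZ #1, and 96.6 and 97.5 CPM with siTAZ #2, and fell with siTAZ #2 (-0.55, standard error 0.08, FDR 0.00673; without replicate 2 of siNTC, FDR 0.0562). SLC16A3 (chromosome 17, from 80175810 to 80219005), the lactate exporter MCT4, was at 119 and 129 CPM with siNTC, 160 and 169 CPM with siTAZ #1, and 318 and 337 CPM with siTAZ #2. SLC16A3 rose 2.64-fold with siTAZ #2 (1.40, standard error 0.09, FDR 0.000642) and 1.33-fold with siTAZ #1 (0.41, standard error 0.08, FDR 0.0223), and the groups did not overlap. The call with siTAZ #1 was lost without replicate 1 or 2 of siNTC (0.34 and 0.46) and without replicate 2 of siTAZ #2 (0.40). The call with siTAZ #2 was kept under all 17 alternatives, although its log2 fold change ran from 0.96 to 1.45 over them. SLC16A1, the lactate transporter MCT1, which is not a member and was added after its values were seen, was at 108 and 97.6 CPM with siNTC, 77.4 and 64.5 CPM with siTAZ #1, and 94.6 and 85.9 CPM with siTAZ #2, and fell with siTAZ #1 (-0.54, standard error 0.12, FDR 0.0324).

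In the upper part of glycolysis, 9 enzymes from hexokinase to triose-phosphate isomerase were tested, and 2 fell with siTAZ #1, while 2 rose and 3 fell with siTAZ #2. These are 22.2% and 55.6% of the 9, beside 20.6% and 28.5% of all genes. HK2, the inducible hexokinase that commits glucose to the pathway, was at 20.2 and 23.3 CPM with siNTC, 11.55 and 12.6 CPM with siTAZ #1, and 13.8 and 10.5 CPM with siTAZ #2. HK2 fell with siTAZ #1 (-0.85, standard error 0.20, FDR 0.0337) and by about as much with siTAZ #2 (-0.84, standard error 0.20, FDR 0.0278), while HK1, the constant form, had changes of -0.09 and -0.06 (FDR 0.645 and 0.777). The HK2 call was lost without either siNTC library (FDR 0.113 and 0.177 with siTAZ #1, 0.0862 and 0.141 with siTAZ #2), and with siTAZ #2 also without either of its own libraries (FDR 0.05 and 0.114). Per kb, HK2 was 2.33% to 4.89% of the hexokinase pair in all 6 libraries. The subunits of phosphofructokinase, the main control point of the pathway, went different ways. PFKP, the platelet type, was at 390 and 408 CPM with siNTC, 319 and 299 CPM with siTAZ #1, and 286 and 304 CPM with siTAZ #2, and fell with siTAZ #1 (-0.37, standard error 0.08, FDR 0.0277) and siTAZ #2 (-0.44, standard error 0.08, FDR 0.0123). PFKL, the liver type, was at 89.9 and 108.6 CPM with siNTC, 89.6 and 84.9 CPM with siTAZ #1, and 142 and 153 CPM with siTAZ #2, and rose with siTAZ #2 (0.57, standard error 0.11, FDR 0.0158). PFKM, the muscle type, had a change of -0.17 with siTAZ #1 (FDR 0.492). Its change of -0.54 with siTAZ #2 just missed the threshold (FDR 0.0504) and was called in 8 of the 17 alternatives, DESeq2 among them (FDR 0.00148). Per kb, PFKL made up 13.5% and 15.4% of the 3 subunits with siNTC, 15.2% and 16.1% with siTAZ #1, and 26% and 25.4% with siTAZ #2. The PFKP calls were lost without either siNTC library (FDR 0.131 and 0.177 with siTAZ #1, 0.0707 and 0.0956 with siTAZ #2), without replicate 1 of siTAZ #2 (0.0544 and 0.0751) and, for the comparison of siTAZ #1, without replicate 2 of siTAZ #2 (0.0517). The PFKL call was lost without replicate 1 of siNTC (0.101) or either siTAZ #2 library (0.0595 and 0.0986), and an offset for GC content, which is 63.4% in PFKL, took its change to 0.21 (FDR 0.169).

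ALDOC rose and TPI1 fell with siTAZ #2. ALDOC (chromosome 17 of GRCh37, from 26900133 to 26903966), the brain-type aldolase, was at 15.1 and 12.6 CPM with siNTC, 15.0 and 13.7 CPM with siTAZ #1, and 31.3 and 31.4 CPM with siTAZ #2. It rose 2.26-fold with siTAZ #2 (1.18, standard error 0.16, FDR 0.00442), with 0.05 with siTAZ #1 (FDR 0.845) and a direct difference of -1.13 (FDR 0.00493). ALDOA, the main aldolase, had changes of -0.20 and -0.13 (FDR 0.248 and 0.405), and ALDOC was 1.77% to 2.4% of the pair per kb with siNTC and siTAZ #1 and 4.67% and 4.59% with siTAZ #2. TPI1 (chromosome 12, from 6976283 to 6980112), which interconverts the triose phosphates, was at 340 and 375 CPM with siNTC, 376 and 368 CPM with siTAZ #1, and 189 and 221 CPM with siTAZ #2. TPI1 fell with siTAZ #2 (-0.80, standard error 0.11, FDR 0.0041) and not with siTAZ #1 (0.06, FDR 0.742), and the direct difference was called (0.86, FDR 0.00335). GPI, which follows hexokinase, had changes of -0.32 (FDR 0.0706, and 0.0196 in DESeq2) and 0.08 (FDR 0.573). The direct difference of GPI, -0.40 (FDR 0.0288), was lost on leaving out any siNTC or siTAZ #2 library (FDR 0.0808 to 0.138).

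The bifunctional enzymes that make and break fructose 2,6-bisphosphate, the strongest activator of phosphofructokinase, were higher with siTAZ #2. PFKFB3 was at 70.1 and 67.0 CPM with siNTC, 98.8 and 84.5 CPM with siTAZ #1, and 135 and 170.2 CPM with siTAZ #2. PFKFB3 rose with siTAZ #2 (1.16, standard error 0.14, FDR 0.00333), and its change with siTAZ #1 was 0.42 (standard error 0.14, FDR 0.0877, and 0.0239 in DESeq2). The direct difference of PFKFB3 was -0.74 (FDR 0.0131) and was lost without replicate 2 of siTAZ #2 (FDR 0.0717). PFKFB4 was at 13.6 and 12.9 CPM with siNTC, 16.8 in both siTAZ #1 libraries, and 24.0 and 22.8 CPM with siTAZ #2. PFKFB4 rose with siTAZ #2 (0.82, standard error 0.14, FDR 0.0101), a call lost on leaving out any siNTC or siTAZ #2 library (FDR 0.0554 to 0.0796).

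In the lower part of glycolysis, GAPDH, the most abundant member per kb in siNTC, was at 2360 and 2405 CPM with siNTC, 2269 and 2244 CPM with siTAZ #1, and 2619 and 2356 CPM with siTAZ #2. Its changes were -0.08 and 0.06 (FDR 0.568 and 0.639). PGAM1, phosphoglycerate mutase, was at 759 and 746 CPM with siNTC, 559 and 433 CPM with siTAZ #1, and 695 and 749 CPM with siTAZ #2. It fell with siTAZ #1 (-0.60, standard error 0.13, FDR 0.0281), and this call and the direct difference of -0.54 (FDR 0.0288) were lost on leaving out any siNTC or siTAZ #2 library (FDR 0.0616 to 0.155). The enolases moved apart with siTAZ #2. ENO1 (chromosome 1, from 8921059 to 8939249), the common enolase, was at 1465 and 1489 CPM with siNTC, 1220 and 1321 CPM with siTAZ #1, and 989 and 900.2 CPM with siTAZ #2. It fell with siTAZ #2 (-0.64, standard error 0.09, FDR 0.00481; without replicate 2 of siNTC, FDR 0.0525), and its change with siTAZ #1 was -0.22 (FDR 0.142). The direct difference of ENO1, 0.43 (FDR 0.0172), was lost on leaving out any siNTC or siTAZ #2 library (FDR 0.0506 to 0.102). ENO2 (chromosome 12 of GRCh37, from 7022909 to 7032861), the neuronal-type enolase, was at 50.15 and 57.1 CPM with siNTC, 38.0 and 36.6 CPM with siTAZ #1, and 115 and 123 CPM with siTAZ #2. ENO2 rose 2.21-fold with siTAZ #2 (1.15, standard error 0.11, FDR 0.00166), and it fell with siTAZ #1 (-0.52, standard error 0.11, FDR 0.0229), a fall that was lost on leaving out any siNTC or siTAZ #2 library (FDR 0.0525 to 0.143). The direct difference of -1.67 (standard error 0.11, FDR 0.000773) was kept under all 17 alternatives. Per kb, ENO2 made up 2.59% and 2.89% of the enolase pair with siNTC, 2.36% and 2.1% with siTAZ #1, and 8.26% and 9.57% with siTAZ #2.

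**Figure D4:**
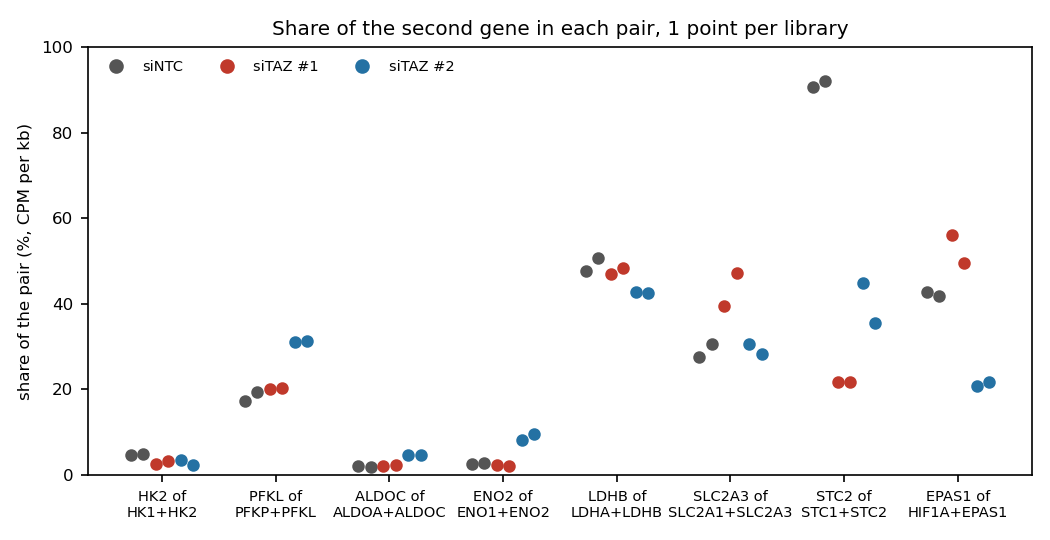
Share of the second gene of each pair in the CPM per kb of both genes (vertical axis, percent), with 1 point per library and siNTC in grey, siTAZ #1 in red and siTAZ #2 in blue. STC2 drops from 90.7% and 92% of its pair with siNTC to 21.7% and 21.8% with siTAZ #1, and ENO2 reaches 8.26% and 9.57% with siTAZ #2 alone.

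The genes that decide the fate of pyruvate passed the threshold with neither siRNA. LDHA, the lactate dehydrogenase subunit that HIF induces, was at 628 and 599 CPM with siNTC, 527 and 569 CPM with siTAZ #1, and 715 and 638 CPM with siTAZ #2, with changes of -0.16 and 0.14 (FDR 0.265 and 0.302). LDHB had changes of -0.25 and -0.24 (FDR 0.148 and 0.144), and the change with siTAZ #2 was called in 4 of the 17 alternatives (exact test FDR 0.0348). PDK1, the kinase that keeps pyruvate from being oxidized in the mitochondrion and a direct HIF target, had changes of -0.0022 and -0.41 (FDR 0.993 and 0.0938). Over all 21 glycolysis members, transporters and regulators included, 1 rose and 5 fell with siTAZ #1 (28.6% called beside 20.6% of all genes, median -0.17) and 6 rose and 6 fell with siTAZ #2 (57.1% beside 28.5%, median -0.06). Their summed level was 8575 and 8748 CPM with siNTC, 7770 and 7466 CPM with siTAZ #1, and 8218 and 8033 CPM with siTAZ #2, of which GAPDH is the largest part. The sum does not cover the whole pathway. PKM2, the entry for pyruvate kinase, is not a member, is not in this sum and was added after its values were seen. It was at 2250 and 2221 CPM with siNTC, 2244 and 2276 CPM with siTAZ #1, and 2918 and 3042 CPM with siTAZ #2. PKM2 rose with siTAZ #2 (0.415, FDR 0.0129) and not with siTAZ #1 (0.02, FDR 0.903). Of 32 other glycolysis genes in the table, 20 were tested, and 2 rose and 2 fell with siTAZ #1, while 4 rose and none fell with siTAZ #2 by edgeR's test, which is 20% in each comparison and not above the 20.6% and 28.5% of all genes. BPGM, which makes and breaks 2,3-bisphosphoglycerate, was called in each comparison, at 28.9 and 29.3 CPM with siNTC, 47.9 and 39.7 CPM with siTAZ #1 (0.59, FDR 0.0244) and 125.7 and 135.3 CPM with siTAZ #2 (2.16, FDR 0.00063). GAPDH, PGAM1, ENO1, TPI1, ALDOA, LDHA and LDHB have processed pseudogenes or near-identical copies elsewhere in the genome, so their counts are uncertain where reads could be split, and the strand setting of the counting is not given in the sources used here.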

How the data were processed

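The deposited table holds raw read counts for each gene. The authors obtained them from Ion Proton reads of HFL-1 RNA, aligned to hg19 with TMAP and counted with HTSeq 0.6.1, without normalization. Of 23368 entries, 13 with a date in place of a gene symbol were left out (0.0458% to 0.0506% of the counts of a library). Counts were filtered with filterByExpr by group, scaled by TMM and fitted over all 6 libraries in edgeR 4.0.16 (R 4.3.3). The quasi-likelihood test was adjusted by Benjamini-Hochberg over 14053 genes at an FDR of 0.05, and standard errors are the log2 fold change divided by the root of F. The fit was also run on simulated data, with a lower dispersion than in the fit here and no library short of the genes from RANGAP1 onward. That run therefore does not test the calls made here. Groups were taken from the labels.

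The members and lists were chosen with earlier results of these data known. All members are accounted for, those called with an siRNA are given by library, and of the other lists the genes called the same way against siNTC are named. Gene positions and transcript lengths come from GENCODE on GRCh37 (21477 symbols, 1921 through a RefSeq synonym), and promoters from RefSeq on GRCh38.p14. Intervals are exact Poisson intervals and cover counting error only. The 17 alternatives were DESeq2 1.42.0, the exact test, other scalings and filters, the 4 libraries of a comparison alone, a replicate block, each library left out in turn, a GC offset (GC content known for 95.5% of genes tested), and a fit without genes from RANGAP1 onward. The library replicates have no stated link between groups, and whether they were handled in pairs cannot be told from the counts.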

Additional observations from a re-analysis of the deposited data

Results flagged for a closer look

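Members were singled out here because the direct test found a difference between the effects of siTAZ #1 and siTAZ #2 (edgeR's quasi-likelihood test, FDR under 0.05). The values are log2 differences, siTAZ #1 minus siTAZ #2, and no explanation was tested. EPAS1 (2.56, FDR 0.000173) and ENO2 (-1.67, FDR 0.000773) were called against siNTC on opposite sides. STC1 (2.43, FDR 0.000759) rose with each siRNA, and ADM (-0.78, FDR 0.0023) fell with each. STC2 (1.165, FDR 0.00122), CA12 (1.07, FDR 0.017), TPI1 (0.86, FDR 0.00335), SLC2A3 (0.73, FDR 0.00281), HIF1A (0.51, FDR 0.0259) and ENO1 (0.43, FDR 0.0172) were higher with siTAZ #1. ALDOC (-1.13, FDR 0.00493), SLC16A3 (-0.99, FDR 0.00131), PFKL (-0.76, FDR 0.00618), PFKFB3 (-0.74, FDR 0.0131), PGAM1 (-0.54, FDR 0.0288) and GPI (-0.40, FDR 0.0288) were higher with siTAZ #2. WWTR1 itself was lower with siTAZ #1 than with siTAZ #2 (-0.70, FDR 0.00499), and whether that bears on these differences was not tested.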

How the results depend on the processing

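Of the members called, 3 of 10 with siTAZ #1 (STC1, VEGFA and ADM), 9 of 20 with siTAZ #2 (STC1, VEGFA, STC2, EPAS1, SLC16A3, ENO2, ALDOC, PFKFB3 and TPI1) and 7 of 16 in the direct comparison (STC1, STC2, EPAS1, ENO2, ALDOC, SLC16A3 and TPI1) kept their call under all 17 alternatives, and no called member turned direction. With 2 libraries per group, leaving out 1 leaves a lone library, whose spread is taken from the other groups. The members higher and lower with siTAZ #1 then numbered 3 to 6 and 1 to 9, with siTAZ #2 6 to 10 and 3 to 13, and in the direct comparison 5 to 10 and 5 to 11, while STC1 ranged from 5.20 to 5.46, from 2.68 to 3.08 and from 2.26 to 2.63. The exact test on 4 libraries called 2 members higher and 1 lower with siTAZ #1, and 4 higher and 3 lower in the direct comparison. The fit of 4 libraries called 3 lower with siTAZ #1. DESeq2 called 6 higher and 7 lower, 10 and 12, and 9 and 10. Over all genes, DESeq2 also called more higher and more lower than edgeR's quasi-likelihood test in each comparison. Deviations from the group means in same-numbered libraries gave r = -0.003 for siNTC with siTAZ #1 and 0.012 for siNTC with siTAZ #2. They gave r = -0.235 for siTAZ #1 with siTAZ #2, over 13477 genes. With 2 libraries per group, a negative value means that opposite-numbered libraries deviated together, and none of these values shows how libraries were handled. With the replicate number as a block, 1 member was lower with siTAZ #1.

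Over all genes, 1515 were higher and 1374 lower with siTAZ #1 (exact test 569 and 492, replicate block 868 and 823, and 279 to 2496 and 277 to 2604 with a library left out). With siTAZ #2, 1983 were higher and 2021 lower (exact test 3259 and 3165, fit of 4 libraries 3073 higher, and 614 to 3031 and 714 to 3011 with a library left out). In the direct comparison, 2137 were higher and 1883 lower (exact test 795 and 703, and 1022 to 2831 and 775 to 2828 with a library left out). The lowest counts came without siNTC replicate 2 against siNTC and without siTAZ #2 replicate 2 in the direct comparison.

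Values near 0, none of them called, changed sign as follows. With siTAZ #1, ANKRD37 came to -0.0019 in the exact test, -0.0173 with upper quartile scaling, -0.0119 without a filter, -0.0031 in the fit of 4 libraries and -0.0089 without the genes from RANGAP1 on, and PDK1 to 0.03 with library totals and 0.0024 at a mean count of at least 50. A GC offset took GAPDH to 0.0061 and NDRG1 to 0.0176 with siTAZ #1, and PGAM1 to 0.0076 with siTAZ #2. Leaving out each library in turn gave ranges across 0 with siTAZ #1 for ANKRD37 (-0.344 to 0.4538), PDK1 (-0.1004 to 0.0819), TPI1 (-0.0232 to 0.118), CA9 (-0.6877 to 5.7045), BNIP3 (-0.1653 to 0.0616), ALDOC (-0.0816 to 0.175), HK1 (-0.2225 to 0.0253) and PFKM (-0.3674 to 0.0049), and with siTAZ #2 for HK1 (-0.1943 to 0.0433) and GAPDH (-0.0181 to 0.1116). The cause was not tested for any of these shifts. Depth limits EGLN3, CA9 and ANKRD37, where a group held at most 111 counts.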

Other observations

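Other genes of the hypoxia list and of the HIF regulators were called with only one of the siRNAs and differed between them, and the following were chosen after their values were seen. ERO1L, an oxidase of the endoplasmic reticulum, was at 38.6 and 36.9 CPM with siNTC, 83.0 and 126 CPM with siTAZ #1, and 54.9 and 38.6 CPM with siTAZ #2, and its log2 difference between the siRNAs was 1.16 (edgeR's quasi-likelihood test, FDR 0.0196). RORA, a nuclear receptor, was at 2.79 and 2.52 CPM with siNTC, 14.2 and 14.8 CPM with siTAZ #1, and 3.65 and 4.41 CPM with siTAZ #2, with a difference of 1.85 (FDR 0.00274). BHLHE40, a repressor that HIF induces, was at 33.0 and 42.4 CPM with siNTC, 30.3 and 33.0 CPM with siTAZ #1, and 129 and 125 CPM with siTAZ #2, with a difference of -2.00 (FDR 0.000993). PDGFB, a growth factor of mesenchymal cells, was at 0.190 and 0.0631 CPM with siNTC, 0.0645 and 0.153 CPM with siTAZ #1, and 3.93 and 3.26 CPM with siTAZ #2, with a difference of -4.83 (FDR 0.00344). VHL, which marks hydroxylated HIF alpha for destruction, was at 88.9 and 90.2 CPM with siNTC, 48.1 and 48.4 CPM with siTAZ #1, and 84.6 and 87.8 CPM with siTAZ #2, with a difference of -0.84 (FDR 0.00207).

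The library with few counts from RANGAP1 to the end of Y also bears on glycolysis genes of the X chromosome. PGK1, the phosphoglycerate kinase, was at 306 and 300.5 CPM with siNTC, 310.7 and 7.18 CPM with siTAZ #1, and 220.5 and 187 CPM with siTAZ #2. PGAM4, a near-identical copy of PGAM1 that lies within the span of PGK1, was at 217 and 225 CPM with siNTC, 166 and 102 CPM with siTAZ #1, and 212 and 211 CPM with siTAZ #2, so it did not drop in that library as PGK1 did. From which gene the reads listed under PGAM4 came was not tested.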
